A study of Mus musculus with 8 samples.

Results

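The genes described here are 6 receptors through which circulating or local vasoconstrictors act on the arterial wall (Ednra, Ednrb, Adra1a, Adra1b, Adra1d and Tbxa2r) and 4 regulators of G-protein signaling (Rgs2, Rgs3, Rgs4 and Rgs5). They were chosen by name and are 10 of the 35896 genes in the count table, and all 10 were among the 17182 genes with enough counts to be tested. The study infused male C57BL6 mice with angiotensin II (AngII, 2.8 mg/kg/d by osmotic minipump for 2 weeks, from 11 weeks of age) and asked which vascular changes outlast the infusion. RNA-sequencing of whole aortic tissue gave 8 libraries, 2 in each of 4 groups, from 16 mice. Aortas of the AngII group were taken when the infusion ended, those of the AngII+2W group 2 weeks later and those of the AngII+3W group 3 weeks later, while the CTRL group held untreated littermates whose labels do not give the time point of sacrifice. The labels name no allele, transgene or second treatment in any group. Each library pooled the tissue of 2 mice, and only part of each aorta was used for RNA. The values of a group are thus averages over pooled mice and all cell types of the tissue. Every p-value below tests a group difference against the spread between pooled libraries. In the model of all 8 libraries that spread was estimated over the 4 groups together.

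Vasoconstrictor receptors are G-protein-coupled receptors on arterial smooth muscle that couple mainly to Gq and its relatives. Active Gq turns on phospholipase C beta, which releases calcium from internal stores and leads to phosphorylation of myosin light chain and contraction. Endothelin acts through Ednra and Ednrb, noradrenaline through the alpha-1 adrenergic receptors, and thromboxane through Tbxa2r. Rgs proteins speed up GTP hydrolysis by the alpha subunit and so shorten the signal, and Rgs2 and Rgs5 are well known in the vessel wall for limiting it.

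Of the 8 libraries, each held between 18130441 and 21498200 counts, so that 3 counts, taken as the floor of detection, stand for 0.14 to 0.162 CPM (counts per 1000000, here with TMM-normalised library sizes). Markers of other tissues varied between libraries. The summed level of 6 cardiac muscle markers was 4658 and 2088 CPM in the CTRL libraries, 812 to 1234 CPM under AngII, 81.0 to 229 CPM in AngII+2W, and 5436 and 431 CPM in replicates 1 and 2 of AngII+3W. The skeletal muscle sum was 2342 CPM in AngII+3W replicate 1 and 4.30 to 73.9 CPM in the other 7 libraries, with Myh4 at 0 in CTRL replicate 1 and in both AngII libraries. The smooth muscle sum was 7238 to 9213 CPM in CTRL, 1679 to 2122 CPM under AngII, 3479 to 3846 CPM in AngII+2W and 1690 to 3303 CPM in AngII+3W, with none of the 6 markers at 0 in any library. The fibroblast sum moved the other way at the end of the infusion, from 1292 to 2140 CPM in CTRL to 7997 to 12941 CPM in AngII. It was 2779 to 4172 CPM in AngII+2W and 1137 to 3022 CPM in AngII+3W. Col1a1 made up most of this sum in CTRL and AngII, with means of 1093 and 8908 CPM. The other fibroblast markers were higher in AngII too, by unequal proportions. Mean levels went from 83.1 to 144 CPM for Pdgfra, 124 to 214 CPM for Pi16 and 29.3 to 219 CPM for Lum. The endothelial sum stayed between 890.5 and 1207 CPM in all 8 libraries, that of macrophages was 241 to 324 CPM in CTRL and 634 to 1061 CPM in AngII, and that of Schwann cells and nerve 268 to 365 CPM and 93.6 to 103 CPM. Over the 8 libraries, brown fat markers summed to 1530 to 3241 CPM and white fat markers to 5362 to 8410 CPM. Acta2, which encodes smooth muscle actin and is the gene the study centred on, was at 3057 and 2246 CPM in CTRL and at 506 and 664 CPM in AngII. In bulk tissue, fewer cells of a type and less RNA per cell cannot be told apart.

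**Figure D1:**
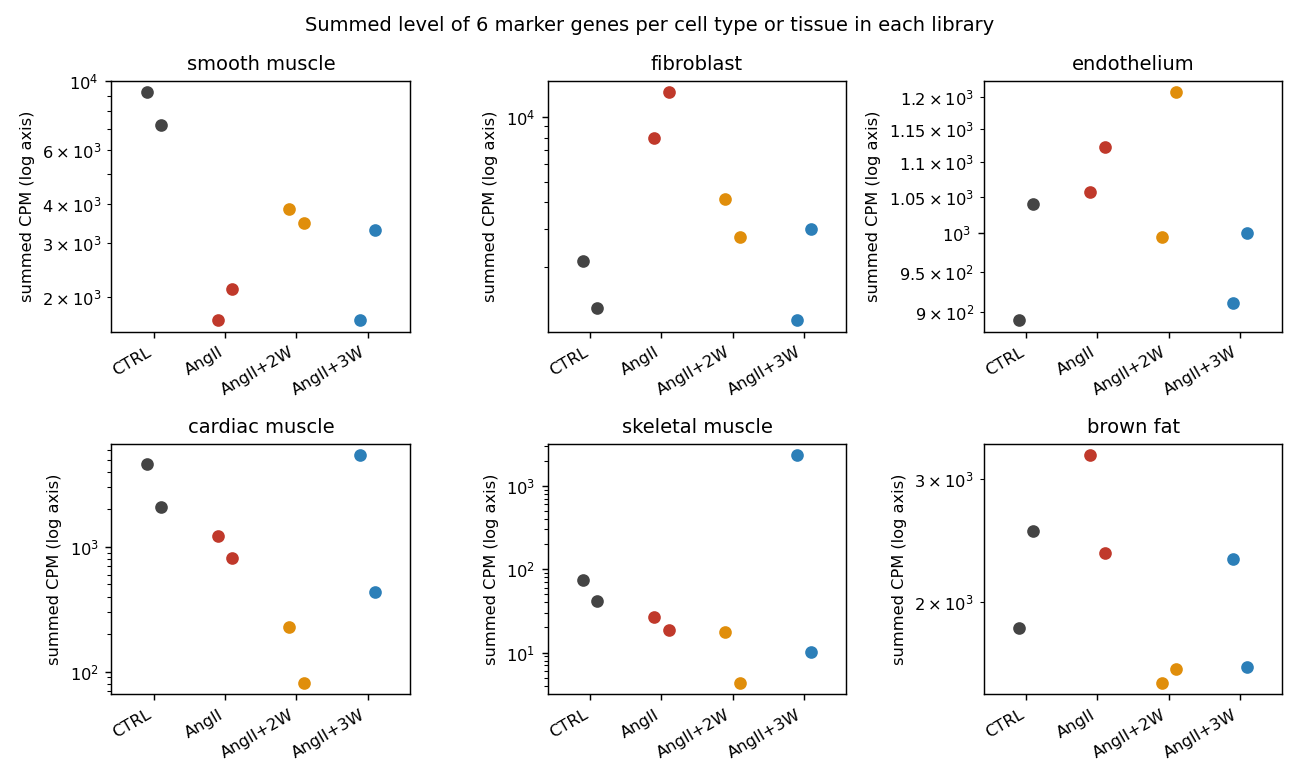
Each point is 1 library and gives the summed CPM of 6 marker genes (log axis, range set for each panel) for smooth muscle, fibroblasts, endothelium, cardiac muscle, skeletal muscle and brown fat, by group. The 2 AngII libraries lie below both CTRL libraries for smooth muscle and above them for fibroblasts, and AngII+3W replicate 1 stands alone for skeletal muscle at 2342 CPM.

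To compare levels between genes, CPM was divided by the length of each gene's merged exons. In CTRL aorta, Rgs5 stood highest at 138 ± 0.221 CPM per kb (SD, n = 2 libraries) and Rgs2 next at 96.2 ± 13.4 CPM per kb. Both Rgs genes lay clear of the receptors. Among receptors, Adra1d was highest at 16.7 ± 3.58 CPM per kb, against 11.96 ± 0.181 for Adra1a, 6.85 ± 0.114 for Ednrb, 4.06 ± 0.295 for Tbxa2r, 3.71 ± 1.17 for Ednra and 1.02 ± 0.596 for Adra1b. Rgs3 (11.97 ± 2.83 CPM per kb) and Rgs4 (11.9 ± 5.10 CPM per kb) fell within the receptor range. The libraries of Rgs3, Adra1a and Rgs4 overlapped each other, those of Adra1d and Rgs4 overlapped, and so did those of Tbxa2r and Ednra, so these neighbours in the order did not differ beyond their spread. Rgs3 has 36 merged exons over 10801 bases, from several transcripts of unequal length. Its level per kb is thus a low estimate for the gene and not the level of any 1 transcript.

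**Figure D2:**
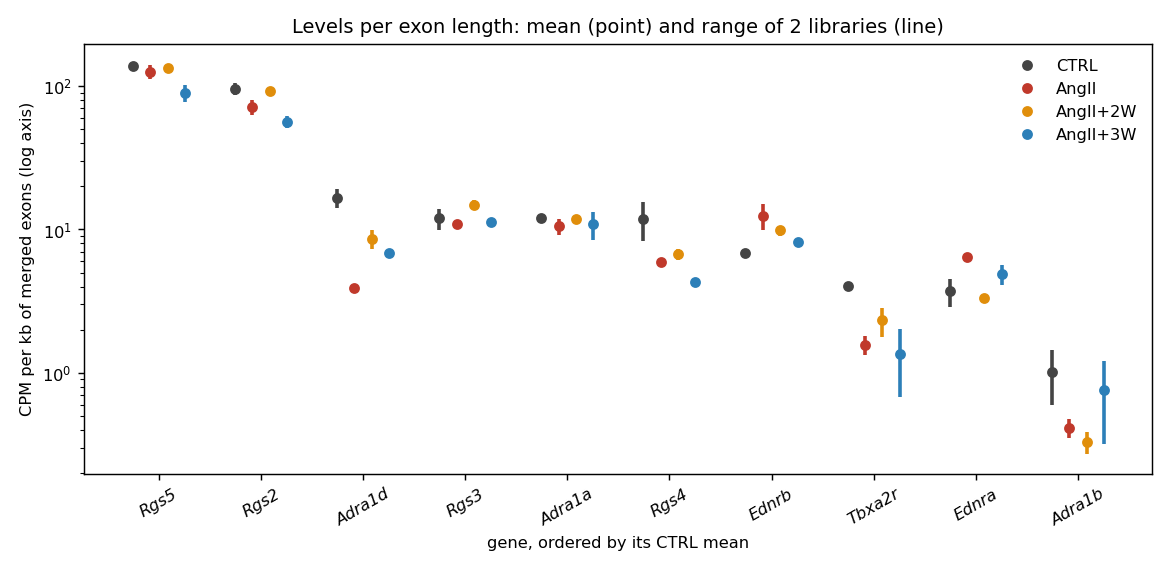
The mean CPM per kb of merged exons is drawn for each gene and group (points, log axis), with a line from the lower to the higher of the 2 libraries and genes ordered by their CTRL mean. Rgs5 and Rgs2 lie above all receptors in every group, and Adra1d moves from 16.7 CPM per kb in CTRL to 3.94 CPM per kb in AngII.

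The first comparison asked what 2 weeks of AngII did to these genes. Adra1d, the alpha-1D adrenergic receptor, fell from a mean of 31.7 to 7.47 CPM and was the only one of the 10 genes past an FDR of 0.05 (edgeR quasi-likelihood test, Benjamini-Hochberg adjustment over all tested genes). Of all 17182 genes, 5.1% were called at that threshold (2.9% higher and 2.2% lower), so 1 of 10 is close to the background. At an FDR below 0.1, Rgs4 on the lower side and Ednrb on the higher side were added, 3 of 10 against 9.73% of all genes (5.49% higher and 4.24% lower). Libraries of the 2 groups did not overlap for 2 genes on the higher side (Ednra and Ednrb) and for 5 on the lower side (Adra1b, Adra1d, Tbxa2r, Rgs2 and Rgs4), where 24.4% of all genes did so upward and 24.9% downward. The median log2 fold change of the 10 genes was -0.30, and that of all genes tested was -0.0085. With 4 residual degrees of freedom the intervals are wide, and an exact permutation test of 2 against 2 libraries could not give a p below 0.33.

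**Figure D3:**
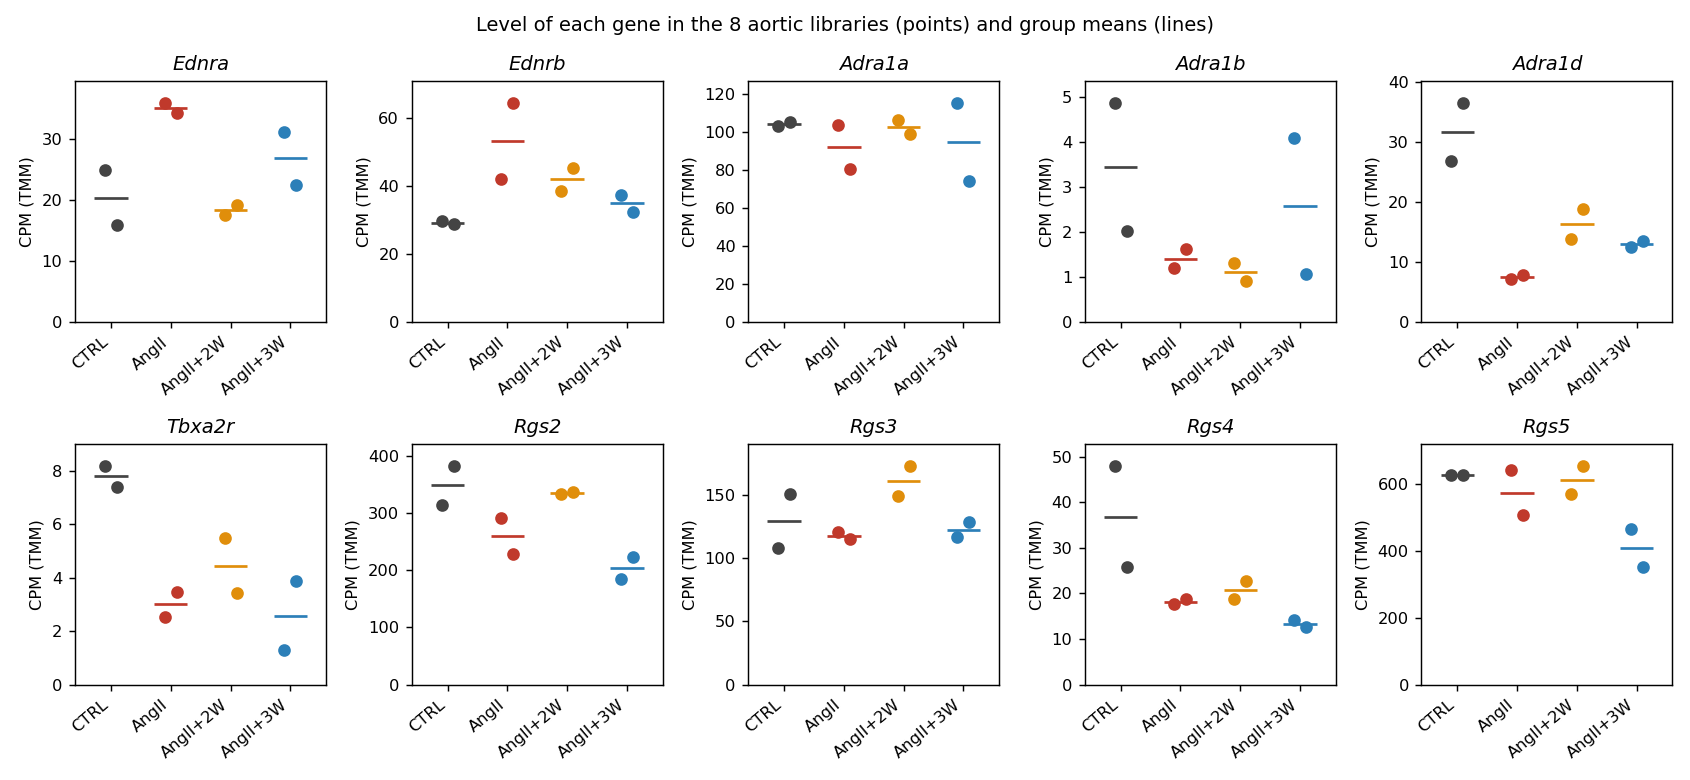
Each point is the CPM of a gene in 1 library and each line the mean of the 2 libraries of a group, on linear axes from 0. Adra1d is the gene whose 2 AngII libraries (7.13 and 7.82 CPM) lie furthest below its CTRL libraries (26.8 and 36.5 CPM) in proportion, and both endothelin receptors have their highest group mean in AngII.

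The 3 alpha-1 adrenergic receptors bind noradrenaline released by the perivascular sympathetic nerves, and Adra1d is the subtype known for contraction of the mouse aorta. Adra1d (ENSMUSG00000027335, GRCm38 chr2:131545850-131562283, reverse strand) was at 26.8 and 36.5 CPM in CTRL, 7.13 and 7.82 CPM under AngII, 13.8 and 18.7 CPM in AngII+2W, and 12.5 and 13.4 CPM in AngII+3W. Both CTRL libraries were above the other 6, and both AngII libraries were below the other 6. In AngII its log2 fold change was -2.08 (SE 0.22, 95% interval -2.58 to -1.58, FDR = 0.00663 by edgeR), which ranked 37th by p among all genes tested. When each library was left out in turn, the value stayed between -2.29 and -1.85, and the FDR was 0.0776 without AngII replicate 2 and below 0.05 in the other 7 fits. Over the same comparison all 6 smooth muscle markers had log2 fold changes below 0, 5 of them past an FDR of 0.05. Their median was -2.17. All 6 fibroblast markers were above 0, 2 of them past that threshold. The part of these markers in the lower level of Adra1d was not tested. An antisense gene, Gm14285, shares 147 exon bases with Adra1d and is not among the genes in the count table, so it could not be analysed. Whether counting used strand is not given in the sources used here, so reads of that stretch cannot be assigned with certainty.

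Adra1a, the alpha-1A subtype (ENSMUSG00000045875, chr14:66635251-66771168, forward strand), gave no such difference. It was at 103 and 105 CPM in CTRL, 104 and 80.5 CPM under AngII, 107 and 99.1 CPM in AngII+2W, and 116 and 74.2 CPM in AngII+3W. The 4 groups overlapped, and the log2 fold change in AngII was -0.18 with a 95% interval of -0.68 to 0.32. The proportions of the 3 alpha-1 receptor transcripts, which were described without a test, differed between CTRL and the other groups. Per kb of exon, Adra1d supplied 51.6% and 60.2% of the 3 receptors' summed level in CTRL. That share was 23.5% and 29.8% at the end of the infusion, 36.5% and 45.9% after 2 weeks without AngII, and 31.3% and 44.5% after 3 weeks. Adra1a supplied 43.2% and 37.9% in CTRL and 74.3% and 66.7% in AngII. Per kb, Adra1d was thus the larger share in CTRL and Adra1a in AngII. That order in CTRL rested on merged exon length, which was 8728 bases for Adra1a and 1899 for Adra1d. In CPM without that division, Adra1a was the higher of the pair in every library. The CPM ratio of Adra1d to Adra1a was 0.26 and 0.346 in CTRL and 0.0687 and 0.0972 in AngII. The ratio of Adra1d to Adra1a in CPM per kb was 1.20 and 1.59 in CTRL, lay between 0.316 and 0.869 in the 6 libraries of infused mice, and was lowest in the AngII pair (0.316 and 0.447). No library of the infused groups reached a CTRL value.

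Adra1b, the alpha-1B subtype (ENSMUSG00000050541, chr11:43774606-43901210, reverse strand), was the scarcest of the 10 genes. Its counts were 100 and 43 for CTRL, 22 and 34 for AngII, 28 and 17 for AngII+2W and 76 and 20 for AngII+3W, and counting error alone reached 24.3% of a value. This was 4.87 and 2.02 CPM in CTRL, 1.19 and 1.61 CPM under AngII, 1.31 and 0.913 CPM in AngII+2W, and 4.09 and 1.07 CPM in AngII+3W. CTRL replicate 1 and AngII+3W replicate 1 stood above the rest, and these were also the 2 libraries with the highest cardiac muscle sums (4658 and 5436 CPM), whose part in the level of Adra1b was not tested. In AngII it had a log2 fold change of -1.29 (95% interval -2.80 to 0.22, FDR = 0.324), and -0.53 without CTRL replicate 1. In AngII+3W it was -0.42 with all libraries, -1.68 without AngII+3W replicate 1, 0.33 without CTRL replicate 1 and 0.19 without AngII+3W replicate 2, so leaving out either of these last 2 libraries turned its sign.

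The endothelin receptors were the 2 genes on the higher side. Ednra, the receptor that mediates endothelin contraction in smooth muscle (ENSMUSG00000031616, chr8:77663031-77724464, reverse strand), was at 24.8 and 15.8 CPM in CTRL, 35.9 and 34.3 CPM under AngII, 17.6 and 19.1 CPM in AngII+2W, and 31.2 and 22.5 CPM in AngII+3W. The AngII libraries were above all others, and AngII+2W lay inside the CTRL range. In AngII its log2 fold change was 0.79 (SE 0.24, 95% interval 0.24 to 1.33, FDR = 0.105 by edgeR), and it was 1.15 without CTRL replicate 1 and 0.49 without CTRL replicate 2. Ednra and the transcript 4933431K23Rik, which is also not in the count table, share 91 exon bases on opposite strands.

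Ednrb is the endothelin receptor best known in endothelium, where it promotes vasodilator release and clears endothelin, although smooth muscle can carry it too. Its transcript (ENSMUSG00000022122, chr14:103814625-103844402, reverse strand) was at 29.6 and 28.9 CPM in CTRL, 42.2 and 64.4 CPM under AngII, 38.6 and 45.3 CPM in AngII+2W, and 37.4 and 32.3 CPM in AngII+3W. All 6 libraries of infused mice were above both CTRL libraries, though not past the test. In AngII the log2 fold change was 0.87 (SE 0.20, 95% interval 0.39 to 1.34, FDR = 0.0551), and the FDR was 0.0424 when AngII replicate 1 was left out, 0.0432 without AngII+3W replicate 1 and 0.0423 without AngII+3W replicate 2. In the other 5 fits the FDR was 0.112 to 0.264, and without AngII replicate 2 the log2 fold change was 0.53 (FDR = 0.264). The endothelial marker sum was 890.5 to 1040 CPM in CTRL and 1057 to 1122 CPM in AngII, and no endothelial marker passed the test. Of the 6 endothelial markers, 5 were above 0 in AngII, 2 of them without overlap, and 1 was below 0, with a median log2 fold change of 0.18. In the same comparison all 6 fibroblast markers and all 6 macrophage markers were higher without overlap, with median log2 fold changes of 1.46 and 1.64. Of these, 2 fibroblast and 3 macrophage markers passed the test. The part of these markers in the levels of Ednra and Ednrb was not tested. The ratio of Ednrb to Ednra in CPM was 1.19 and 1.83 in CTRL and 1.17 and 1.88 in AngII, so the pair kept nearly the same proportion at the end of the infusion. In AngII+2W the ratio was 2.20 and 2.37, above the other 6 libraries, with Ednra back in the CTRL range and Ednrb still above it.

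Tbxa2r, the thromboxane A2 receptor (ENSMUSG00000034881, chr10:81328731-81335172, forward strand), was at 8.19 and 7.39 CPM in CTRL, 2.54 and 3.46 CPM under AngII, 5.46 and 3.44 CPM in AngII+2W, and 1.29 and 3.87 CPM in AngII+3W. Both CTRL libraries were above all 6 others, and the 3 infused groups overlapped each other. The log2 fold change was -1.37 (95% interval -2.44 to -0.30, FDR = 0.143) in AngII, -0.80 (95% interval -1.84 to 0.24) in AngII+2W and -1.59 (95% interval -2.68 to -0.51, FDR = 0.219) in AngII+3W. None passed the test with all 8 libraries. As for Adra1d, the part of the lower smooth muscle markers in this was not tested. The counts ranged from 24 to 168, and AngII+3W replicate 1, the library with the skeletal muscle transcripts, gave the lowest. Without that library the AngII+3W log2 fold change was -1.01 (FDR = 0.342), and the AngII value was -1.38 with an FDR of 0.0276. Without AngII+3W replicate 2 the AngII+3W value was -2.64 with an FDR of 0.0239, and the AngII value -1.38 with an FDR of 0.0295. In the other 6 fits each, the FDR was 0.218 to 0.48 in AngII and 0.32 to 0.40 in AngII+3W.

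**Figure D4:**
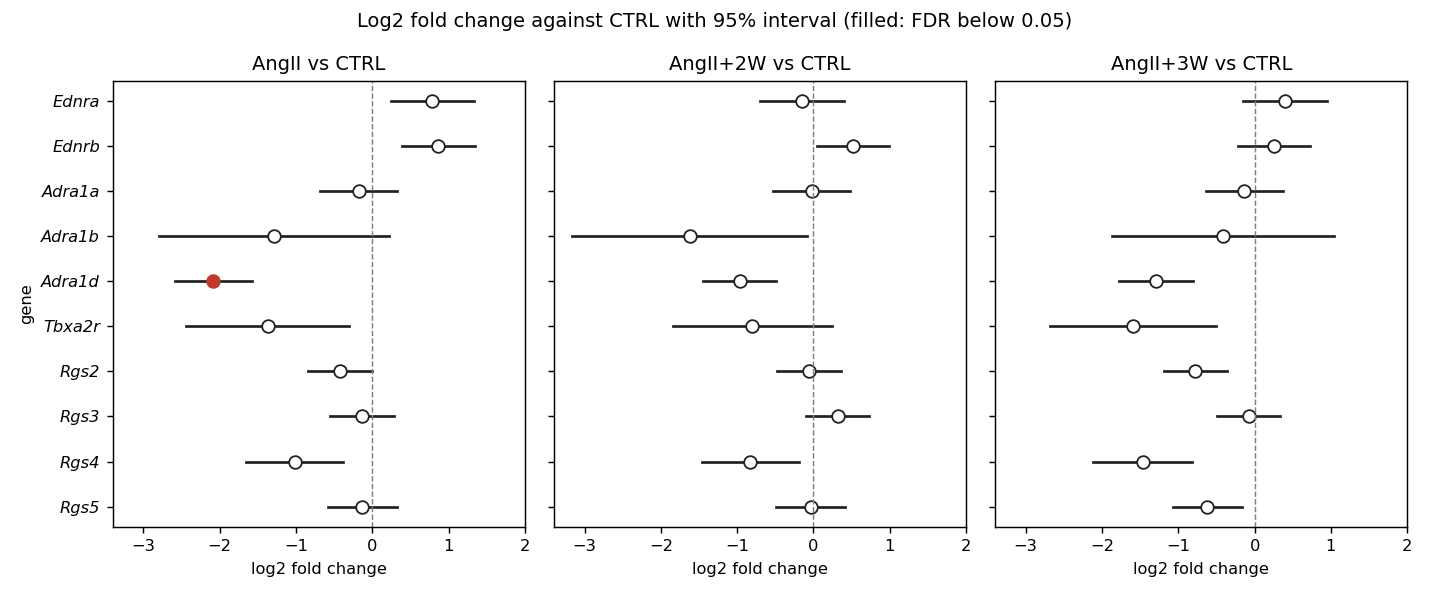
The log2 fold change against CTRL (points) with its 95% interval (lines) is drawn for the 10 genes at the end of the infusion and 2 and 3 weeks after it, with a filled point for an FDR below 0.05. Adra1d in AngII, at -2.08, is the only filled point, and the 3 comparisons share the CTRL libraries.

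Among the 4 Rgs genes, the scarce Rgs4 gave the largest difference from CTRL, and the abundant Rgs5 and Rgs3 gave none beyond the spread at the end of the infusion. Rgs4 and Rgs5 are neighbours on chromosome 1, where Rgs5 (ENSMUSG00000026678, chr1:169655501-169695813, forward strand) and Rgs4 (ENSMUSG00000038530, chr1:169741477-169747642, reverse strand) point towards each other with 45663 bases between their 3′ ends. The 250 bases before each gene's start are shown because the pair are adjacent. They are from RefSeq on GRCm38.p6, read on the gene's own strand, with any TATAAA in capitals.
Rgs4, chr1:169747643-169747892, reverse strand: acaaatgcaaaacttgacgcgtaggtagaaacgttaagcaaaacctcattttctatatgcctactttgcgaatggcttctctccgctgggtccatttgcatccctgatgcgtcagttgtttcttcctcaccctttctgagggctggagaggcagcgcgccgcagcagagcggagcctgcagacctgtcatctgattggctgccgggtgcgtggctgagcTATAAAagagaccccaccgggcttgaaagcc
Rgs5, chr1:169655251-169655500, forward strand: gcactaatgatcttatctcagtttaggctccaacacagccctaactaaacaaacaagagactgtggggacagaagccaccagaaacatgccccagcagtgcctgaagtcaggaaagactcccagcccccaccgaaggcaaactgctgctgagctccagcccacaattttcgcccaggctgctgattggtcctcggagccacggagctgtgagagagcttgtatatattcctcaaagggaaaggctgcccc
The Rgs4 window holds TATAAA 31 bases before the start and 13 CpG dinucleotides, and the Rgs5 window holds no TATAAA on either strand and 4 CpG dinucleotides, at the same GC content of 53.6%. RefSeq windows were at hand for 8 of the 10 genes (11 windows), of which 3 held TATAAA on either strand (both of Rgs3 and that of Rgs4), against 12.4% of all 32851 promoter windows. The CArG box, the binding motif of serum response factor in many smooth muscle promoters, was in 0 of the 11 windows and in 1.47% of all windows. A match in letters is not a binding site, and its absence concerns only these windows.

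Rgs4, which acts on Gq and Gi alpha subunits, was at 48.1 and 25.7 CPM in CTRL, 17.7 and 18.8 CPM under AngII, 18.9 and 22.8 CPM in AngII+2W, and 14.1 and 12.6 CPM in AngII+3W. Both CTRL libraries were above the other 6, but the gap between them was wider than the gap between the lower of them and AngII. The log2 fold change was -1.02 (95% interval -1.65 to -0.38, FDR = 0.0796) in AngII, -0.82 (95% interval -1.46 to -0.20, FDR = 0.343) in AngII+2W and -1.47 (95% interval -2.11 to -0.82, FDR = 0.0826) in AngII+3W. Without CTRL replicate 1 the AngII value was -0.50 (FDR = 0.221) and the AngII+3W value -0.95 (FDR = 0.244), whereas without CTRL replicate 2 they were -1.41 (FDR = 0.0198) and -1.87 (FDR = 0.0298). The size of the difference in Rgs4 thus rested on which CTRL library was used.

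Rgs2, the regulator most selective for Gq alpha (ENSMUSG00000026360, chr1:143999338-144004161, reverse strand), was at 314 and 383 CPM in CTRL, 291 and 228 CPM under AngII, 333 and 338 CPM in AngII+2W, and 185 and 223 CPM in AngII+3W. The AngII+3W libraries were the lowest of all 8, and AngII+2W lay inside the CTRL range. Rgs2 had a log2 fold change of -0.43 in AngII (95% interval -0.84 to -0.0096, FDR = 0.238; -0.26 without AngII replicate 2) and of -0.77 in AngII+3W (95% interval -1.19 to -0.36, FDR = 0.128). Without AngII+3W replicate 1 the latter was -0.65 (FDR = 0.302).

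Rgs5, a marker of pericytes and arterial smooth muscle and the most abundant of the 10 genes, was at 628 and 627 CPM in CTRL, 641 and 507 CPM under AngII, 569 and 655 CPM in AngII+2W, and 465 and 350.5 CPM in AngII+3W. Here too the AngII+3W libraries were below all others. The log2 fold change was -0.13 (95% interval -0.58 to 0.32) in AngII, so a fall as large as that of Adra1d lay outside the interval, and -0.62 (95% interval -1.07 to -0.17, FDR = 0.249) in AngII+3W. Rgs3 (ENSMUSG00000059810, chr4:62559847-62704001, forward strand), which codes for long and short proteins, ranged from 108 to 173 CPM, and its CTRL libraries (108 and 151 CPM) overlapped with those of every other group. Its log2 fold changes against CTRL were -0.13, 0.32 and -0.079 in AngII, AngII+2W and AngII+3W.

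Summed over the 4 genes, the Rgs level was 1098 and 1187 CPM in CTRL, 1071 and 869 CPM under AngII, 1069.9 and 1189 CPM in AngII+2W, and 780.3 and 714.5 CPM in AngII+3W. Only the AngII+3W libraries were below all the rest. Rgs5 made up 49.05% to 59.9% of that sum in every library. Rgs4 made up 4.38% and 2.17% in CTRL and 1.65% to 2.17% elsewhere. The pericyte marker sum, a cell type in which Rgs5 is abundant, was 705 to 726 CPM in CTRL, 488 to 497 CPM under AngII, 538 to 551 CPM in AngII+2W and 395 to 570.1 CPM in AngII+3W. Cspg4 and Abcc9 made up most of this sum and were lower in AngII (log2 fold changes of -0.77 and -0.38, neither past the test), whereas the other 4 of the 6 markers were above 0, 1 of them past the test (Higd1b, from 1.70 to 4.32 CPM, FDR = 0.0431), and the list median was 0.13. The part of pericytes in the Rgs5 level was not tested.

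The second question was what was left 2 and 3 weeks after the infusion. Adra1d was still below both CTRL libraries at each time, and Tbxa2r and Rgs4 were too, but none of the 10 genes passed an FDR of 0.05. In AngII+2W against CTRL, 0% of all genes were called at an FDR of 0.05 by edgeR, and 4 of the 10 genes had an unadjusted p below 0.05 (Ednrb, Adra1b, Adra1d and Rgs4) against 10.7% of all genes. Non-overlap was seen upward for 1 gene (Ednrb) and downward for 4 (Adra1b, Adra1d, Tbxa2r and Rgs4), where 21.7% and 22.2% of all genes did so. Adra1d was at a log2 fold change of -0.96 (95% interval -1.44 to -0.48, FDR = 0.215). DESeq2 and edgeR's likelihood ratio test each called 1 of the 10 genes here, which was Adra1d, and 2.17% and 2.44% of all genes. The median over the 10 genes was -0.10.

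In AngII+3W against CTRL, 0.285% of all genes were called by edgeR (0.0175% higher and 0.268% lower), and again 0 of the 10. At an unadjusted p below 0.05 there were 5 (Adra1d, Tbxa2r, Rgs2, Rgs4 and Rgs5), against 12.5% of all genes. DESeq2 called these 5 (3.42% of all genes), and edgeR's likelihood ratio test called 4 of them, without Rgs5 (3.24% of all genes). At an FDR below 0.1 there were 2 (Adra1d and Rgs4), both lower, against 1.43% of all genes in either direction and 1.23% on the lower side. The same 5 genes were those whose libraries did not overlap downward, and Ednrb did not overlap upward, where 18.3% and 19.8% of all genes did so. Adra1d was at -1.29 (95% interval -1.77 to -0.81, FDR = 0.0616), -1.24 (FDR = 0.148) without AngII+3W replicate 1 and -1.40 (FDR = 0.0454) without AngII+3W replicate 2, and its FDR was 0.116 to 0.237 in the other 6 fits. Smooth muscle markers were lower as well, 3 of 6 past the test and a list median of -1.82, and their part was not tested. The median over the 10 genes was -0.52, against 0.028 over all genes.

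The groups of infused mice were also compared with each other, without the CTRL libraries they share. None of the 10 genes was called, where 0.163% of all genes were called in AngII+2W against AngII, 1.61% in AngII+3W against AngII and 0% in AngII+3W against AngII+2W. An unadjusted p below 0.05 was found for 3 of the 10 genes in each comparison (Ednra, Adra1d and Rgs3 in the first, Ednrb, Adra1d and Rgs5 in the next, and Rgs2, Rgs4 and Rgs5 in the last), against 15%, 17.8% and 8.83% of all genes. DESeq2 called 2 of the 10 in the first (Adra1d and Ednra), 0 in the next and 1 in the last (Rgs2), where it called 3.99%, 5.52% and 1.26% of all genes. The likelihood ratio test of edgeR called the same 2, then 1 (Adra1d) and 0, against 4.46%, 6.22% and 1.59% of all genes. Adra1d was higher in both libraries of AngII+2W than in either AngII library, by a log2 fold change of 1.12 (95% interval 0.62 to 1.61, FDR = 0.0744), and higher in AngII+3W by 0.79 (95% interval 0.30 to 1.29, FDR = 0.12). Ednra was lower in AngII+2W than in AngII, at -0.93 (95% interval -1.48 to -0.39, FDR = 0.13), and Ednrb was lower in AngII+3W than in AngII, at -0.61 (95% interval -1.08 to -0.14, FDR = 0.177). The group means of Adra1d, Ednra and Ednrb were thus nearer to CTRL in both later groups than in AngII, by differences that missed the threshold. The Rgs genes did not share this order. Between AngII+2W and AngII+3W all 4 Rgs genes were lower at 3 weeks without overlap, with log2 fold changes of -0.72 for Rgs2 (95% interval -1.14 to -0.30), -0.59 for Rgs5 (95% interval -1.04 to -0.13), -0.64 for Rgs4 (95% interval -1.29 to -0.0032) and -0.40 for Rgs3 (95% interval -0.81 to 0.02), while 19.7% of all genes were lower without overlap in that comparison. Their FDR was between 0.391 and 0.573. Of the 6 smooth muscle markers, 5 were below 0 in this comparison, 4 of them without overlap, and 1 was above 0. Their median log2 fold change was -0.65 with 0 past the test, and their part in the Rgs levels was not tested.

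Ligand enzymes, other receptors, effectors, receptor kinases and the remaining Rgs genes were followed as 83 genes in 5 lists, of which 77 had enough counts. In AngII, 9 of the 77 passed an FDR of 0.05 by edgeR, 1 higher and 8 lower, against 5.1% of all genes (2.9% higher and 2.2% lower), with a median log2 fold change of 0.049 over the 77, and 5 to 19 passed under other settings. In AngII+2W and AngII+3W against CTRL 0 of the 77 did, with 14 and 12 at an unadjusted p below 0.05 (10.7% and 12.5% of all genes) and with up to 6 and 7 calls under other settings. The 9 calls in AngII became 0 without CTRL replicate 1, AngII replicate 1 or AngII replicate 2, 3 without either AngII+2W library, and 15 and 16 without AngII+3W replicates 1 and 2.

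Of the 9 ligands and ligand enzymes none was called in AngII by edgeR. Edn1, the endothelin gene, was at 7.75 and 4.94 CPM in CTRL and 4.32 and 6.35 CPM in AngII. Ece1, which cuts the endothelin precursor, was at 162 and 159 CPM in CTRL and 153 and 179 CPM in AngII. Ptgs1 and Ptgs2, the cyclooxygenases, had log2 fold changes of 0.15 and -0.13. Tbxas1, thromboxane synthase, was at 14.1 and 11.4 CPM in CTRL and 19.0 and 24.9 CPM in AngII (log2 fold change 0.78, FDR = 0.0558), opposite in sign to the thromboxane receptor.

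Of the 20 other receptors, 1 was called higher and 3 lower in AngII. Agtr2, the type 2 angiotensin receptor, had 0 counts in both CTRL libraries and 1.57 and 1.47 CPM in AngII, at least 10.6-fold higher than the floor of 3 counts per library (FDR = 0.0269). Agtr1a, the type 1 receptor that AngII itself uses, was at 9.11 and 10.3 CPM in CTRL and 10.9 and 13.4 CPM in AngII (log2 fold change 0.33, 95% interval -0.25 to 0.90). The 3 receptors called lower were Npy1r for neuropeptide Y (log2 fold change -1.94, FDR = 0.0437) and Htr1b and Htr2a for serotonin (-1.96, FDR = 0.0496, and -1.49, FDR = 0.0407). For all 3, CTRL replicate 1 was more than 1.5 times replicate 2, as for Npy1r at 39.9 and 14.1 CPM against 7.18 and 6.87 CPM in AngII. The most abundant receptors of this list, Ptger3, F2r and Ptgfr, did not pass the test, with log2 fold changes of 0.0011, 0.38 and -1.33.

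Of the 26 G proteins and effectors, 4 were called lower in AngII. Mylk, myosin light chain kinase, was at 856 and 642 CPM in CTRL and 202 and 265 CPM in AngII (log2 fold change -1.68, FDR = 0.0209). Ppp1r12a, the targeting subunit of myosin phosphatase, fell by 1.54 on the log2 scale (FDR = 0.0121), and Ppp1r14a, the phosphatase inhibitor CPI, fell by 1.68 (FDR = 0.0318). Plcb4, a phospholipase C beta, went from 327 and 240 CPM to 146 and 130 CPM (log2 fold change -1.04, FDR = 0.0209). Both Mylk and Ppp1r14a act for contraction and Ppp1r12a for relaxation, so the called genes lay on both sides. The alpha subunits to which the receptors couple had log2 fold changes of 0.05 for Gnaq, -0.22 for Gna11, -0.087 for Gna12 and 0.22 for Gna13, and their 95% intervals lay between -0.48 and 0.54. Arhgef12, Itpr1 and Itpr2, the other abundant members, were at -0.14, -0.50 and -0.31 and did not pass the test.

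None of the 7 receptor kinases and arrestins, which switch active receptors off, was called by edgeR. Grk3, Arrb1, Grk5 and Grk2, the most abundant, had log2 fold changes between 0.045 and 0.31. Of the 15 other Rgs genes tested, 1 was called lower. Rgs7bp, which anchors the R7 family of Rgs proteins at the membrane, was at 32.7 and 21.5 CPM in CTRL and 8.48 and 8.48 CPM in AngII (log2 fold change -1.68, FDR = 0.0157), and at 20.7 and 20.2 CPM in AngII+2W. Its partner Rgs7 was at 62.0 and 56.4 CPM in CTRL and 71.3 and 51.4 CPM in AngII. Rgs12 and Rgs19 did not pass the test, and Rgs6, another R7 member, was at a log2 fold change of -1.26 with an FDR of 0.136.

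**Figure D5:**
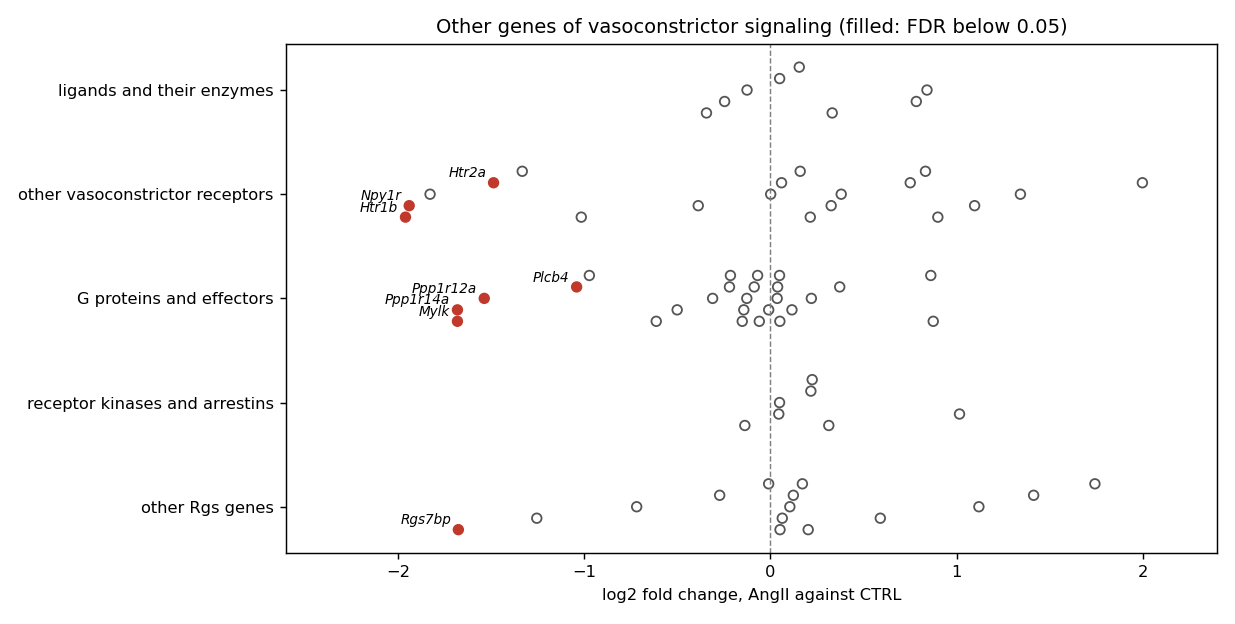
Log2 fold changes in AngII against CTRL are drawn for 75 of the 77 tested genes of the 5 lists, with filled and named points for an FDR below 0.05. Dbh and Agtr2 are left out because 1 of the groups had 0 counts in both libraries; the 8 filled points all lie below 0, between -1.96 and -1.04.

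The genes whose pattern over the 8 libraries was most like that of each receptor or regulator were found by Pearson's r of log2 CPM among all tested genes. Group differences and tissue content enter these values, since the 8 libraries fall into 4 groups. Adra1d was most like Btbd6 and Bsdc1 (r = 0.98 for both) and Epc1 (0.971). Tbxa2r was most like Vasn (0.988), Wfdc1 (0.986) and Adamts8 (0.985). Ednra was most like Nras (0.983), Tmod3 (0.978) and Gm45147 (0.969), and Ednrb most like B430306N03Rik (0.981), Ly6c2 (0.977) and Dynlt1a (0.968). Adra1b was most like Fam174b (0.975), Cand2 (0.974) and Slc41a3 (0.971), and Adra1a most like Mrpl42 (0.965), Il22ra1 (0.955) and Klhl2 (0.955). Rgs4 was most like Bcl2l1 (0.972), Tsc22d1 (0.969) and Hsph1 (0.967), and Rgs5 most like Cited2 (0.968), Foxq1 (0.952) and Serpina3k (0.948). Rgs2 was most like Cst3 and Tmem254c (0.961 for both) and Emc10 (0.955), and Rgs3 most like Tbx1 (0.976), Kit (0.96) and Rap1gap (0.958). None of the 30 nearest genes was another member of the 10.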

How the data were processed

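Total RNA of aortic tissue was sequenced as 8 libraries (4 groups of 2), and groups and replicate numbers were taken from the labels. The authors depleted ribosomal RNA, estimated transcript abundance with Salmon against GRCm38.p6 in the ARMOR workflow and summed it per gene, and the deposited table holds expected counts as whole numbers, without normalization. Transcript lengths were not part of it, so length offsets were not applied, and whether strand was used is not given in the sources used here. The counts were tested with edgeR 4.0.16 (R 4.3.3) after filterByExpr and TMM normalization, by the quasi-likelihood F test in its older form. All 8 libraries entered 1 model with 1 coefficient per group, which left 4 residual degrees of freedom, and 6 comparisons were made. P-values are two-sided and adjusted by Benjamini-Hochberg over the 17182 genes tested (FDR, threshold 0.05). Standard errors are the absolute log2 fold change over the square root of F. The counting error of 1 value is given as a percent of it and covers counting only.

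The 10 genes, the pathway lists and the marker lists were chosen with earlier results of these data known. Of the pathway lists, the text names every gene past the threshold and up to 4 more per list with the highest mean CPM, and for each of the 10 genes the 3 others with the highest correlation of log2 CPM (prior count 2). Agtr1a, Edn1, Gna11, Gna12, Gna13 and Gnaq were named after their values were seen, as were Th and Ddc. Gene positions are from GENCODE gene models on GRCm38, in which 98.9% of the table's identifiers were found, and similar transcripts were searched with BLAST (at least 95% identity over 100 bases), which found Gm14285 for Adra1d and no other for the 10 genes. The code was also run on simulated counts. These held no tissue differences between libraries, so that run does not bear on the results above. Alternatives were other scalings and filters, DESeq2 1.42.0, limma-voom (limma 3.58.1), edgeR's likelihood ratio test and newer quasi-likelihood fit, a fit of the 2 groups alone, a replicate block and each library left out in turn. Replicates of a group differed by more than sampling noise (chi-square per degree of freedom of 12.2 to 84.5).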

Additional observations from a re-analysis of the deposited data

Results flagged for a closer look

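Dbh, the enzyme that makes noradrenaline in sympathetic nerves and chromaffin cells, was the 1 gene of the pathway lists that differed between 2 groups of infused mice past the threshold (FDR = 0.0436 by edgeR in AngII+2W against AngII). It had 0 counts in both AngII libraries and 5.32 and 16.9 CPM in AngII+2W, at least 73.1-fold higher than the floor of 3 counts per library, or at least 35-fold from AngII+2W replicate 1 alone. It passed the threshold under 8 of 10 other settings, limma-voom and the replicate block being the exceptions, and in 2 of the 8 fits with 1 library left out (FDR 0.0266 to 0.279, highest without AngII+2W replicate 2). In CTRL it was at 0.244 and 0.235 CPM, and in AngII+3W at 0.591 and 0.376 CPM. Th, the first enzyme of the same pathway, was at 2.01 and 7.25 CPM in AngII+2W and at most 0.332 CPM in the other 6 libraries, and Ddc was at 4.43 and 8.43 CPM against 2.32 to 3.76 CPM. All 3 were thus highest in AngII+2W replicate 2.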

How the results depend on the processing

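Over all genes, 877 (5.1%) were past an FDR of 0.05 in AngII against CTRL, and 622 to 1711 under other settings. The number of the 10 genes past an FDR of 0.05 depended on the test as well. In AngII against CTRL it was 1, and it was 2 when genes with 1 count or more were all kept, 4 by DESeq2, 4 by edgeR's likelihood ratio test, 2 with only the 2 groups, 3 at an FDR below 0.1, and 0 to 3 when 1 library was left out. In AngII+2W against CTRL it was 0, and 1 by DESeq2 and by the likelihood ratio test. In AngII+3W against CTRL it was 0, and 2 with all such genes kept, 5 by DESeq2, 4 by the likelihood ratio test, 2 at an FDR below 0.1, and 0 to 2 with 1 library left out. In AngII+2W against AngII it was 0, and 1 with all such genes kept, 2 by DESeq2, 2 by the likelihood ratio test, 2 with only the 2 groups and 1 at an FDR below 0.1. It was 0 in the 2 comparisons with the AngII+3W group that remain, and 1 by the likelihood ratio test against AngII and 1 by DESeq2 against AngII+2W. The cause of these differences was not tested. Adra1d was called in AngII under all 10 other settings (log2 fold change -2.09 to -2.05).

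Replicate numbers are not a pairing, since same-numbered libraries come from different mice and their deviations correlated between -0.0445 and 0.248 over 6 pairs of groups. With a replicate block, 1 of the 10 genes was called in AngII (Adra1d, -2.07, FDR = 0.0116) and 0 in the other comparisons.

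Over the 10 genes and 6 comparisons, 569 of 600 values under other settings kept their direction and side of the threshold, 30 passed it in addition and 1 turned its sign (Adra1a in AngII+3W against AngII, -0.027 with library totals alone). Of 480 values with 1 library left out, 449 kept both, 9 passed in addition, 1 lost the call and 21 turned their sign. Ednra then ranged from -0.44 to 0.22 in AngII+2W against CTRL. Adra1a then ranged from -0.084 to 0.024 in AngII+2W against CTRL, -0.50 to 0.092 in AngII+3W against CTRL, -0.0086 to 0.34 in AngII+2W against AngII, -0.30 to 0.28 in AngII+3W against AngII and -0.47 to 0.12 in AngII+3W against AngII+2W. Adra1b then ranged from -1.68 to 0.33 in AngII+3W against CTRL, -0.38 to 1.49 in AngII+3W against AngII and -0.054 to 1.82 in AngII+3W against AngII+2W. Tbxa2r then ranged from -1.27 to 0.37 in AngII+3W against AngII. Rgs2 then ranged from -0.18 to 0.10 in AngII+2W against CTRL. Rgs3 then ranged from -0.36 to 0.12 in AngII against CTRL, -0.30 to 0.17 in AngII+3W against CTRL and -0.066 to 0.13 in AngII+3W against AngII. Rgs5 then ranged from -0.31 to 0.032 in AngII against CTRL, -0.15 to 0.052 in AngII+2W against CTRL and -0.063 to 0.26 in AngII+2W against AngII. No value that turned its sign had passed the threshold with all 8 libraries. Counts over all genes past an FDR of 0.05 in AngII against CTRL, 877, were 622 to 1711 under other settings and 0 to 1504 with 1 library left out, and in AngII+3W against CTRL, 49, they were 0 to 587 and 0 to 463. Adra1b and Tbxa2r had the lowest counts, down to 17 and 24, where counting error alone was 24.3% and 20.4%.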
